A study of Rattus norvegicus with 36 samples.

Results

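The 10 genes described here belong to the uptake, transport, storage, synthesis and desaturation of fatty acids, or to the control of these steps. They are Pparg, Fabp4, Fabp5, Lpl, Cd36, Plin2, Scd, Scd2, Srebf1 and Fasn, and they were chosen by name, with earlier results of these data known. Of these, 9 have an entry among the 23487 gene symbols of the deposited count table, and all 9 passed the filter on low counts with 14498 genes in total. Cd36, a fatty acid transporter of the cell surface, was not analysed here.

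Bulk RNA was sequenced from primary alveolar macrophages of male F344/HanZtmRj rats, which had spent 5 days in culture in DMEM with 10% fetal bovine serum. For 4 of those days the cells were in a control, a non-overload or an overload condition of 1 of 4 particles. The carbon black was Printex90, and the 3 titanium dioxides were G1-1, G3-1 and Bayertitan. Controls were kept separately for each particle, which made 12 groups of 3 libraries and 36 libraries in all. All groups share the strain, the sex, the serum and the culture time, and no genetic change is stated. Particle doses are not given in the sources used here, and the labels call the libraries biological replicates without saying whether they came from separate animals, so the p-values measure the spread between these libraries.

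Macrophages take up fatty acids after lipoprotein lipase, the product of Lpl, has released them from triglyceride at the cell surface, and the binding proteins Fabp4 and Fabp5 carry them through the cytosol. Pparg encodes PPAR gamma, a nuclear receptor that binds fatty acids and switches on genes of their uptake and storage. In the lung it is needed for alveolar macrophages to mature and to clear surfactant lipid. Srebf1 encodes SREBP-1, the transcription factor of fatty acid synthesis. Fasn, fatty acid synthase, makes saturated fatty acids, the stearoyl-CoA desaturases Scd and Scd2 put a double bond into them, and Plin2 encodes the coat protein of the lipid droplets in which they are stored.

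Promoter sequences of 300 bases, from 250 before to 50 after a transcription start, were matched in RefSeq (build GRCr8) for 6 of the 10 genes with 9 starts. Those of both desaturases and of Srebf1 are shown for the synthesis and desaturation step, with 1 start of Plin2 for storage. The windows of Pparg and Cd36 are not printed. The Srebf1 starts are numbered by coordinate, so on the minus strand the first lies downstream of the second. Capitals mark 6 motifs searched on both strands: the nuclear receptor site AGGTCA, the PPAR element made of a pair of such sites 1 base apart, the E-box CACGTG, the CCAAT box CCAAT, the TATA box TATAAA and the GC box GGGCGG.
Scd2 (chr1:253118127-253118426, plus strand): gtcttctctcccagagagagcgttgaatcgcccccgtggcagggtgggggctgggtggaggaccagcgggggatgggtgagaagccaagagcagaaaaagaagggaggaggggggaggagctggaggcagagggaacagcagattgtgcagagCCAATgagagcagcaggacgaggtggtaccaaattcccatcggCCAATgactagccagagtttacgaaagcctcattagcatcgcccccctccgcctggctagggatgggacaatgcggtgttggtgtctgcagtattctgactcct
Scd (chr1:253231682-253231981, minus strand): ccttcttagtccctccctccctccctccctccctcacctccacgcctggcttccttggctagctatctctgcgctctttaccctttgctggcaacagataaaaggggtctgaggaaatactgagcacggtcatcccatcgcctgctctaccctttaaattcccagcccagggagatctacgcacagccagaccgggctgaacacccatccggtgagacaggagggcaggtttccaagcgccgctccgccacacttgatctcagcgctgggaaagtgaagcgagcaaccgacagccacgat
Srebf1, first start (chr10:45518961-45519260, minus strand): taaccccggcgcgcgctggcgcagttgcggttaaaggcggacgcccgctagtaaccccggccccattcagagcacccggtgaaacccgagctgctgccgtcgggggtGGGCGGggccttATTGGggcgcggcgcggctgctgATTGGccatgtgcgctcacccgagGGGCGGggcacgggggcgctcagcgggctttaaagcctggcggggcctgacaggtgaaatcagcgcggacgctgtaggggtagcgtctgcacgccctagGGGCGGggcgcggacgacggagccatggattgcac
Srebf1, second start (chr10:45529115-45529414, minus strand): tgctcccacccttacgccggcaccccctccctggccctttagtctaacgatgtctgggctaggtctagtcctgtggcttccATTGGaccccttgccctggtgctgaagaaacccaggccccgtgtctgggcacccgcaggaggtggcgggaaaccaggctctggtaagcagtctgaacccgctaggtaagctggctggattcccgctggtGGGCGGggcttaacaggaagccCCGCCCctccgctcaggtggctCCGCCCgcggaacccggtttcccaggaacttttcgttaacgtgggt
Plin2 (chr5:106228969-106229268, minus strand): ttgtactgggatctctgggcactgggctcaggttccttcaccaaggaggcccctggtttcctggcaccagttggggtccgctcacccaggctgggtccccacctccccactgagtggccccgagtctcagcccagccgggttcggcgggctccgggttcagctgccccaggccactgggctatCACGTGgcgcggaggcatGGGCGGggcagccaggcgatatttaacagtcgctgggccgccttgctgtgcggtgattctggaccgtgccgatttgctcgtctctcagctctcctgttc
The Scd2 promoter holds CCAAT boxes at 97 and 54 bases before the start, and a CCAAT box is found in 37.5% of the 33469 promoters of this length. The Scd window holds none of the 6 motifs. The Srebf1 windows hold 2 and 1 CCAAT boxes and 3 GC boxes each, against 33.1% of all promoters with a GC box. The Plin2 window holds an E-box 67 bases before the start, which 6.42% of promoters hold, and a GC box 49 bases before it. The whole PPAR element, found in 0.0538% of promoters, does not occur in the 5 windows shown. These matches describe letters and not binding.

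The deposited values are estimated counts from Salmon and summed to between 22274300 and 37131500 per library. Levels are counts-per-million values (CPM), on totals scaled by TMM for genes and on plain totals for the marker ranges and sums. The macrophage markers Cd68 and Lyz2 lay between 508 and 835 CPM and between 9949.9 and 16324 CPM, whereas Marco was at most 0.353 CPM and 0 in 5 libraries. Epithelial transcripts were found in every library, among them Epcam at 39.1 to 195 CPM and Krt8 at 306 to 663 CPM, while surfactant protein C (Sftpc) was at 0 in all 36 libraries. Fibroblast Col3a1 exceeded 10 CPM in 15 libraries. Of the adipocyte markers Lep was at 0 in 35 libraries and Plin1 at most 0.171 CPM, but Adipoq lay between 28.5 and 45.2 CPM.

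**Figure D1:**
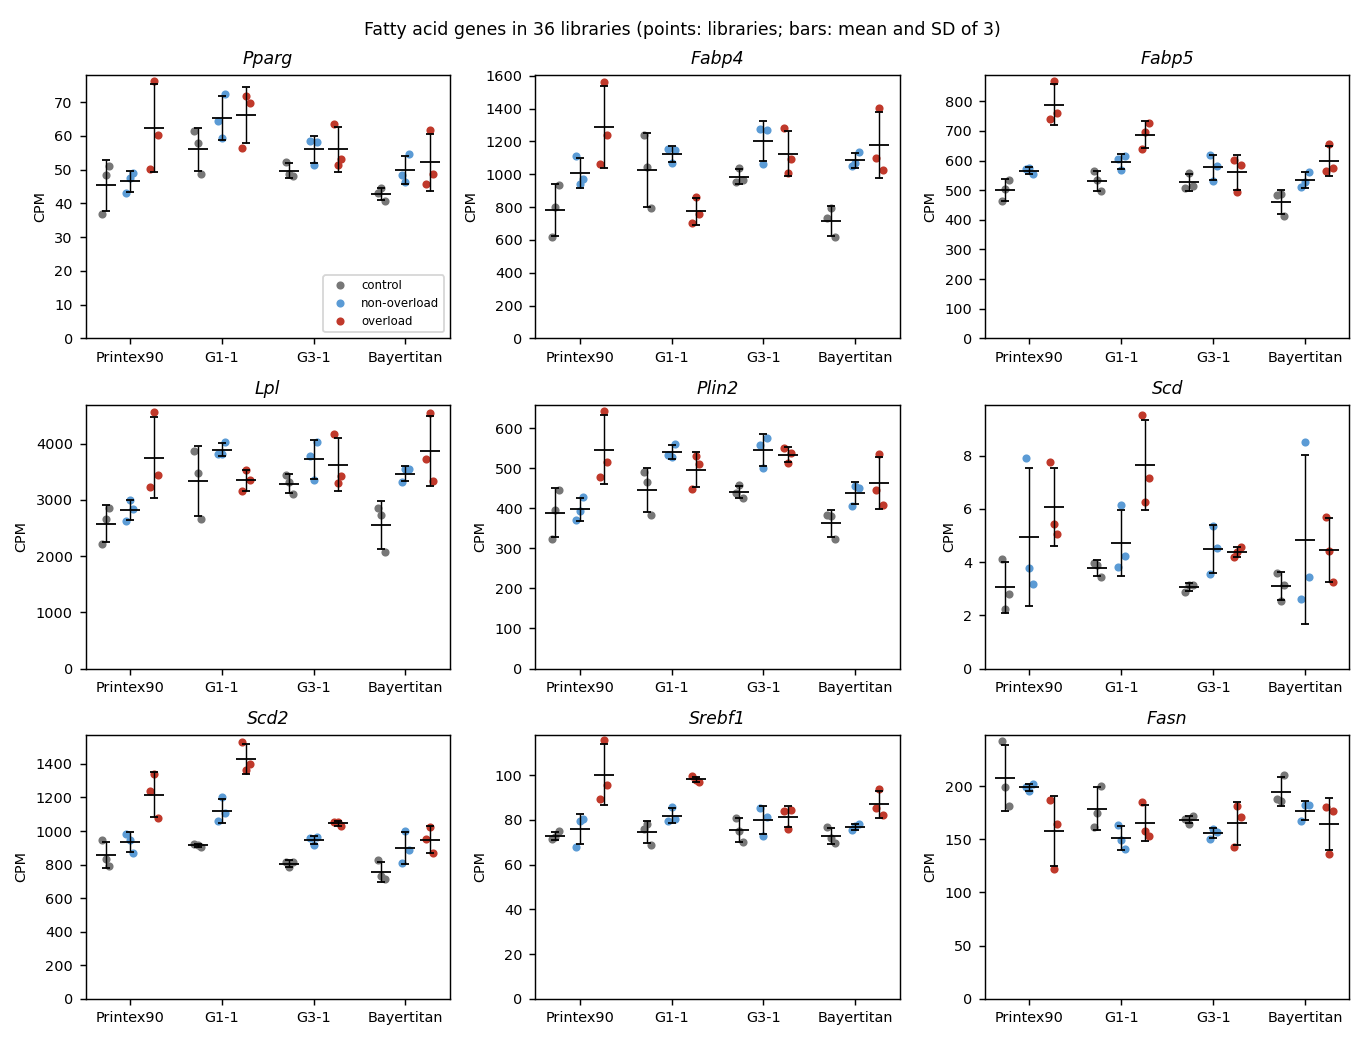
Expression of the 9 measured genes in CPM (vertical axes, from 0) in each of the 36 libraries, by particle and, from left to right, control, non-overload and overload. Points are libraries and bars the mean and SD of 3; the Scd2 points of overload lie above all controls of the same particle with each of the 4 particles.

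Fatty acid genes were mostly higher in overload cultures than in controls. In the mean of the 4 particles 8 of the 9 measured genes rose and Fasn fell (edgeR's quasi-likelihood test, Benjamini-Hochberg adjustment over all 14498 genes tested, threshold 0.05). Of all genes tested 11.9% were called higher and 12.1% lower in this comparison. The members and the other gene lists were chosen with earlier results of these data known. Their counts beside such shares therefore describe the lists and do not test them. The median log2 fold change of the 9 genes was 0.32, against 0.00 over all genes tested. By particle, 7 rose and 1 fell with Printex90, 3 rose with G1-1, none passed with G3-1 and 6 rose with Bayertitan. The shares of all genes called higher were 5.15% with Printex90, 2.3% with G1-1, 0.0897% with G3-1 and 5.74% with Bayertitan, and 2.84% were called lower with Printex90. With a covariate for epithelial markers, or with Bayertitan fitted alone, none of the 6 Bayertitan calls was made. Each of these fits called 0 of all genes with that particle. With G3-1 DESeq2 called 1 of the 9 genes, Scd2, and 79 of all genes, while edgeR called none of the 9. In that comparison 1770 of all genes tested had an unadjusted p under 0.05 by edgeR. In such bulk RNA fewer cells of a type and less RNA per cell cannot be told apart.

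Pparg, the regulator of uptake and storage, was expressed at 36.8 to 76.2 CPM in the 36 libraries. With Printex90 it was at 50.3, 76.2 and 60.3 CPM under overload, against 36.8, 48.4 and 51.0 CPM in controls. The groups overlapped by a single pair of libraries, and the rise passed the test (log2 fold change 0.45 ± 0.14, SE, edgeR adjusted p = 0.0392). With the other particles the log2 fold changes of overload were 0.24 with G1-1, 0.17 with G3-1 and 0.29 with Bayertitan, none past the threshold, although the Bayertitan overload libraries, at 45.9, 61.8 and 48.6 CPM, all lay above the controls at 43.2, 44.4 and 40.7 CPM. Averaged over the particles, Pparg rose by 0.29 ± 0.068 on the log2 scale (SE, edgeR adjusted p = 0.00317).

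Lpl had 3228, 4565 and 3442 CPM under Printex90 overload, against 2217, 2652 and 2862 CPM in the controls. With Bayertitan it had 3726, 4545 and 3326 CPM under overload, against 2854, 2733 and 2074 CPM in the controls. In both comparisons all overload libraries lay above all controls, and Lpl rose by 0.54 ± 0.14 with Printex90 and by 0.60 ± 0.14 with Bayertitan (log2, SE, edgeR adjusted p = 0.0167 and 0.0234). With G1-1 the groups overlapped. Lpl averaged 3345 ± 190 CPM under overload and 3338 ± 617 CPM in controls (SD, n = 3 each), a log2 fold change of 0.00. With G3-1 the fold change was 0.14, also short of the threshold.

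Fabp4, the fatty acid binding protein of adipocytes and macrophages, rose with 2 particles and had a negative fold change, short of the threshold, with G1-1. It had 1064, 1560.3 and 1238 CPM under Printex90 overload, against 617, 799 and 933 CPM in controls, and 1101, 1406 and 1024 CPM under Bayertitan overload, against 733, 793 and 616 CPM in controls. Neither pair of groups overlapped, and both rises were 0.72 ± 0.15 on the log2 scale (SE, edgeR adjusted p = 0.00537 with Printex90 and 0.0192 with Bayertitan). With G1-1 it had 701, 864 and 758 CPM under overload, against 1239, 1046 and 794 CPM in controls. Here 2 of the 3 overload libraries lay below every control, and the log2 fold change of -0.41 ± 0.15 did not pass (SE, edgeR adjusted p = 0.14). With G3-1 the fold change was 0.19, with groups that overlapped.

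The overload effect on Fabp4 differed between the particles (edgeR F test of the 4 effects, adjusted p = 0.00813). Between pairs of particles, the effect with Printex90 exceeded that with G1-1 by 1.12 on the log2 scale (edgeR adjusted p = 0.00893), and the effect with G1-1 minus that with Bayertitan was -1.13 (edgeR adjusted p = 0.00374). Of the 9 genes, 2 passed this F test, Fabp4 and Fabp5, against 1.72% of all genes tested. The controls enter the difference: Fabp4 averaged 783 ± 158 CPM in the Printex90 controls, 1026 ± 223 in those of G1-1, 986 ± 47.2 in those of G3-1 and 714 ± 90.2 in those of Bayertitan (SD, n = 3 each). An F test of the 4 control groups gave an adjusted p of 0.0652 for Fabp4 by edgeR. By edgeR this test called none of the 9 genes and 5.59% of all genes tested, and 3347 had an unadjusted p under 0.05. DESeq2 called 2 of the 9 genes and 1461 of all genes. Macrophage markers also moved with the particle. Of the 9 of 10 that were tested, overload gave 2 higher with Printex90 (median log2 fold change 0.11), 3 lower with G1-1 (-0.17), none past the threshold with G3-1 (-0.03) and 3 higher with Bayertitan (0.27). Of all 14498 genes tested, edgeR called 1158 with Printex90, 727 with G1-1, 17 with G3-1 and 1426 with Bayertitan, in either direction. The 10 macrophage markers summed to 13987 to 15603 CPM in the G1-1 overload libraries and 16896 to 20992 CPM in their controls. With Bayertitan they summed to 18036 to 21071 CPM in the overload libraries and 16010.1 to 16989.9 CPM in their controls. Lyz2 made up most of these sums, at 9949.9 to 11308 CPM under G1-1 overload and 12645 to 16099 CPM in the G1-1 controls. Cd68 lay the other way, at 705, 801 and 778 CPM under G1-1 overload and 686, 697 and 615 CPM in controls. The markers that fell past the threshold with G1-1 were Adgre1 by 0.99, Csf1r by 0.49 and Lyz2 by 0.41 on the log2 scale. The overload effects on Lyz2 and Adgre1, of the macrophage markers, passed the same F test (edgeR adjusted p = 0.0435 and 0.0490). The part of the macrophage markers in the Fabp4 result was not tested. Under overload itself Fabp4 was lower in the 3 G1-1 libraries than in any overload library of another particle.

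Fabp5, the related binding protein of epithelium and macrophages, had 739, 868 and 760.4 CPM under Printex90 overload, against 463, 506 and 534 CPM in controls. All overload libraries lay above the controls, and the rise of 0.66 ± 0.082 (log2, SE, edgeR adjusted p = 1.47e-05) was the largest that passed for Fabp5. It also rose with G1-1, to 639, 696 and 728 CPM under overload, against 564, 536 and 496 CPM in controls (log2 fold change 0.37 ± 0.082, edgeR adjusted p = 0.00657), and with Bayertitan, to 565, 657 and 576 CPM, against 482, 486 and 412 CPM (0.38 ± 0.082, edgeR adjusted p = 0.0192). Neither of these pairs of groups overlapped. With G3-1 the groups overlapped and Fabp5 averaged 560.1 ± 59.1 CPM under overload and 526 ± 27.9 CPM in controls (SD, n = 3 each). The effects differed between particles (edgeR F test, adjusted p = 0.0426), by 0.57 between Printex90 and G3-1 (edgeR adjusted p = 0.033). Fabp4 and Fabp5 had opposite signs with G1-1, where Fabp5 passed the test and Fabp4 did not.

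Plin2, the droplet coat protein, had 478, 642 and 516 CPM under Printex90 overload, against 324, 396 and 447 CPM in controls, and rose by 0.49 ± 0.11 (log2, SE, edgeR adjusted p = 0.00961). With Bayertitan it had 446, 535 and 409 CPM under overload, against 383, 381 and 323 CPM in controls, and rose by 0.36 ± 0.11 (edgeR adjusted p = 0.0473). With G3-1 it had 551, 512 and 538 CPM under overload, against 438, 457 and 426 CPM in controls. None of these 3 pairs of groups overlapped, but the fold change with G3-1, 0.28 ± 0.11, did not pass (edgeR adjusted p = 0.339). With G1-1 the groups overlapped and the fold change was 0.15. Over the 4 particles Plin2 rose by 0.32 ± 0.057 and Lpl by 0.32 ± 0.069 (log2, SE, edgeR adjusted p = 0.000299 and 0.00155).

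**Figure D2:**
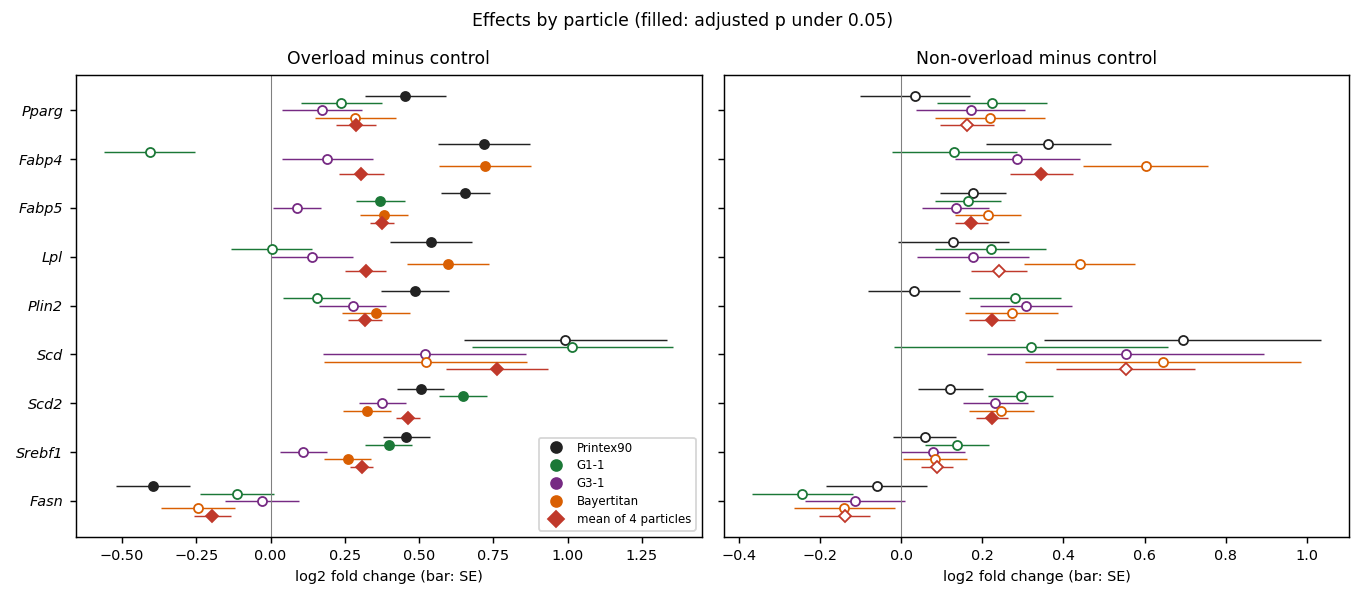
Log2 fold change (horizontal axes) of overload minus control and of non-overload minus control for each gene, by particle and as the mean of the 4 particles, with bars of 1 SE. Filled symbols have an edgeR adjusted p under 0.05; Fabp4 with G1-1 overload lies at -0.41, left of 0, while with Printex90 and Bayertitan it lies at 0.72.

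Srebf1, the regulator of synthesis, varied little among controls, from 68.9 to 80.9 CPM. With G1-1 it had 99.5, 97.6 and 97.1 CPM under overload, against 76.0, 78.3 and 68.9 CPM in controls, and rose by 0.40 ± 0.079 (log2, SE, edgeR adjusted p = 0.00245). With Printex90 it had 89.4, 116 and 95.6 CPM under overload, against 71.4, 72.4 and 74.9 CPM in controls, and rose by 0.46 ± 0.079 (edgeR adjusted p = 0.000949). With Bayertitan the overload libraries, at 85.2, 93.7 and 82.0 CPM, also all lay above the controls, at 76.6, 71.7 and 69.8 CPM, and the rise was 0.26 ± 0.079 (edgeR adjusted p = 0.0401). With G3-1 the groups overlapped and the fold change was 0.11.

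Scd2 was the member whose overload libraries all lay above the controls with each of the 4 particles. With G1-1 it had 1531, 1362 and 1401 CPM under overload, against 921, 917 and 904 CPM in controls, a rise of 0.65 ± 0.08 (log2, SE, edgeR adjusted p = 7.6e-06). It rose to 1217 ± 132 CPM under Printex90 overload, against 857 ± 78.7 CPM in controls, and to 948 ± 80.0 CPM under Bayertitan overload, against 757 ± 59.4 CPM in controls (SD, n = 3 each; log2 0.51 and 0.33, edgeR adjusted p = 0.000355 and 0.0265). With G3-1 it had 1054, 1056 and 1028 CPM under overload, against 817, 783 and 817 CPM in controls. The gap between these groups was wide against the spread within them. The log2 fold change of 0.38 ± 0.08 (SE) had an unadjusted p of 6.66e-05 and an adjusted p of 0.0536 by edgeR. Scd2 with Bayertitan passed with a larger unadjusted p, 0.000375 by edgeR. The adjustment was made within each comparison, where edgeR called 17 of all genes with G3-1 and 1426 with Bayertitan. In the mean of the particles Scd2 rose by 0.46 ± 0.040 (SE, edgeR adjusted p = 1.01e-08), the smallest adjusted p of the 9 genes. Its effects were not shown to differ between particles by the F test.

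Scd, a paralog in a cluster with Scd2, Scd3 and Scd4 on chromosome 1, was low, at 59 to 281 estimated counts per library. With G1-1 it had 9.53, 6.25 and 7.15 CPM under overload, against 3.98, 3.91 and 3.44 CPM in controls. With Printex90 it had 7.77, 5.44 and 5.06 CPM under overload, against 4.13, 2.25 and 2.80 CPM in controls. Both pairs of groups were apart, yet at log2 fold changes of 1.02 ± 0.34 and 0.99 ± 0.34 neither passed alone (SE, edgeR adjusted p = 0.0834 and 0.0689). With G3-1 the overload libraries, at 4.21, 4.37 and 4.58 CPM, also lay above the controls, at 2.90, 3.14 and 3.14 CPM. Averaged over the particles, Scd rose by 0.76 ± 0.17 (log2, SE, edgeR adjusted p = 0.00216). Salmon splits reads that fit several paralogs by a model, and in RefSeq the symbol Scd is also an older name of Scd2, so part of the Scd value may belong to Scd2, which was not tested. The same limit holds for Fabp4 and Fabp5, members of one family on chromosome 2.

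Fasn was the exception among the 9 genes. With Printex90 it had 187, 122 and 164 CPM under overload, against 242, 199 and 181 CPM in controls, groups that overlapped by 1 pair of libraries. It fell by 0.40 ± 0.12 (log2, SE, edgeR adjusted p = 0.0475). With Bayertitan it had 181, 136 and 177 CPM under overload, against 188, 186 and 210.1 CPM in controls, with every overload library below the controls and a fold change of -0.24 that did not pass (edgeR adjusted p = 0.195). The values were -0.11 with G1-1 and -0.03 with G3-1, both with overlapping groups. In the mean of the particles Fasn fell by 0.20 ± 0.062 (SE, edgeR adjusted p = 0.022), while Srebf1, whose product activates Fasn, rose by 0.31 ± 0.039 (SE, edgeR adjusted p = 5.93e-06).

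Counted by overlap, all overload libraries lay above all controls for 7 of the 9 genes with Printex90, 4 with G1-1, 3 with G3-1 and 7 with Bayertitan, and below them for 1 gene with Bayertitan. Of all genes tested 12.8% lay above with Printex90, 11% with G1-1, 5.66% with G3-1 and 16.8% with Bayertitan, and 14.2% lay below with Bayertitan. A pair of libraries held most of the extreme values. Printex90 overload replicate 2 was the highest of the 36 libraries for 6 genes and the lowest for Fasn, and Bayertitan control replicate 3 was the lowest for 5 genes. Without the first, Fabp4, Fasn, Lpl, Plin2 and Pparg lost their Printex90 calls, and without the second all 6 Bayertitan calls were lost. Of all genes, 178 were then called with Printex90 and 0 with Bayertitan, against 1158 and 1426 with all libraries. The Bayertitan calls were likewise lost without Bayertitan overload replicate 2, and the same 5 Printex90 calls without Printex90 control replicate 1. These fits called 0 of all genes with Bayertitan and 280 with Printex90. Pparg with Printex90 also lost its call without overload replicate 3 or control replicate 2, Scd2 with Bayertitan without overload replicate 1 or control replicate 2, and Fabp5 with G1-1 without overload replicate 3. In each of these fits fewer of all genes were called with that particle than with all libraries. Of the 9 calls in the mean of the particles, Fasn alone was lost with a single library left out, in 3 of the 36 fits, those without Printex90 control replicate 1, G1-1 control replicate 3 or Bayertitan overload replicate 2. With Printex90 overload replicate 2 and Bayertitan control replicate 3 both left out, an analysis added after the values were seen, 8 of the 9 genes still rose in the mean. There 2233 of all genes were called, against 3484 with all libraries. In single particles 7 calls were made on the 9 genes, 6 of them among the 17 made with all libraries and 1 new.

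Fewer of the genes passed at non-overload. In the mean of the particles 4 of the 9 genes rose against the controls, against 1.55% of all genes tested: Fabp4 by 0.35 (edgeR adjusted p = 0.0157), Plin2 by 0.22 (0.0352), Scd2 by 0.22 (0.0037) and Fabp5 by 0.17 (0.0244), all log2 fold changes with adjusted p in parentheses. With the covariate for epithelial markers Scd2 alone of the 4 passed, at 0.18 (edgeR adjusted p = 0.0342). Without the 15 libraries with Col3a1 above 10 CPM some groups kept a single library, among them the Printex90 controls and Bayertitan non-overload. In that fit the changes were 0.23 for Fabp4, 0.13 for Plin2, 0.18 for Scd2 and 0.10 for Fabp5, each smaller than with all libraries. Of all genes, 54 were called with the epithelial covariate, against 399 without it. At non-overload the epithelial marker mean was lower than in controls by 0.07 with Printex90, 0.13 with G1-1, 0.41 with G3-1 and 0.59 with Bayertitan (log2), and the fibroblast mean was higher by 0.36, 0.07, 1.99 and 2.81 in the same order of particles. In single particles edgeR called none of the 36 tests of these genes, and DESeq2 called 1, with Bayertitan, where it called 30 of all genes. The share of all genes called higher by edgeR was 0.0621% with G1-1 and 0% with each of the other 3 particles. Unadjusted p-values under 0.05 were found for 628 of all genes tested with Printex90, 925 with G1-1, 782 with G3-1 and 2352 with Bayertitan. The genes differed in how their values lay across the loadings. With Bayertitan, Fabp4 averaged 714 ± 90.2 CPM in controls, 1084 ± 46.3 CPM at non-overload and 1177 ± 202 CPM at overload, and the other fatty acid binding protein, Fabp5, 460.0 ± 41.8, 534 ± 26.3 and 599 ± 49.9 CPM in the same order (SD, n = 3 each). With G1-1, Scd2 averaged 914 ± 8.65 CPM in controls, 1122 ± 72.0 CPM at non-overload and 1431 ± 88.6 CPM at overload, with no overlap between any of the 3 groups.

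Overload was also set directly against non-overload. In the mean of the particles 3 of the 9 genes were higher at overload, against 0.504% of all genes tested: Scd2 by 0.24 (edgeR adjusted p = 0.0012), Srebf1 by 0.22 (0.0031) and Fabp5 by 0.20 (0.0097), with log2 fold changes and adjusted p as before. With Printex90, Fabp5 was higher by 0.48, Plin2 by 0.46, Srebf1 by 0.40 and Scd2 by 0.38, against 1.26% of all genes tested called higher. With G1-1 Scd2 alone of the 9 passed, at 0.35, against 0.586% of all genes tested. With G3-1 and Bayertitan neither edgeR nor DESeq2 called any of the 9, edgeR called 0% of all genes tested higher, and 920 and 927 genes had an unadjusted p under 0.05. Fabp4 with G1-1 had 701, 864 and 758 CPM at overload, against 1156, 1067 and 1148 CPM at non-overload. These groups did not overlap, but the log2 fold change of -0.54 did not pass (edgeR adjusted p = 0.0655). Without Printex90 overload replicate 2 the 4 Printex90 calls against non-overload were all lost. That fit called 11 of all genes in this comparison, against 230 with all libraries. Plin2 and Srebf1 also lost their Printex90 calls without non-overload replicate 1, and Plin2 without non-overload replicate 2. Of all genes, 19 and 50 were called in these fits. The G1-1 call of Scd2 was lost without overload or non-overload replicate 1 or 3. There 69 to 106 of all genes were called, against 282 with all libraries. The comparisons with non-overload and with controls share libraries, so their values stand side by side and are not separate evidence.

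Across the 36 libraries several of the genes varied together. Log2 CPM of Lpl and Plin2 had a Pearson r of 0.89, Pparg and Plin2 0.87, Fabp5 and Srebf1 0.87, Fabp4 and Lpl 0.84, and Scd and Scd2 0.80. Fasn ran opposite, with an r of -0.89 with Lpl, -0.87 with Plin2 and -0.85 with Pparg. These values describe 36 libraries that share groups and culture, and carry no test. Among all other genes tested the one most like Lpl was Il18bp, a secreted inhibitor of an inflammatory interleukin (r = 0.97). The nearest were Vapa for Fabp5 (0.95), Lcp1 for Plin2 (0.94), Arl6ip5 for Fabp4 (0.93), Enpp3 for Scd2 (0.93), Sh3pxd2a for Fasn (0.92) and Pgk1 for Scd (0.81). The nearest to Pparg and Srebf1 were entries without a descriptive name, LOC102555457 (0.93) and AABR07012312.1 (0.94).

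Transcripts of epithelial markers moved with several of these genes. The 13 listed epithelial markers summed to 803 to 1550 CPM in the Printex90 overload libraries and 1322 to 1959 CPM in their controls, and to 727 to 1272 CPM in the Bayertitan overload libraries and 1344 to 1645 CPM in their controls. With G3-1 they summed to 745 to 936 CPM under overload and 1015 to 1253 CPM in controls, and with G1-1 to 1266 to 1365 CPM under overload and 975 to 1563 CPM in controls. Of the 10 epithelial markers that passed the filter, some were low: Sftpd, Slc34a2 and Scgb1a1 had medians of 0.338, 0.217 and 2.21 CPM, against 466 CPM for Krt8. The mean log2 CPM of these 10, each with equal weight, was lower under overload by 0.65 with Printex90, 0.76 with G3-1 and 0.64 with Bayertitan, and higher by 0.20 with G1-1. Across the 36 libraries its Pearson r was -0.66 with Fabp4, -0.63 with Lpl, -0.61 with Plin2 and 0.50 with Fasn, and lay between -0.31 and -0.17 with the other 5 genes. With this mean as a covariate, 4 of the 9 genes rose under overload in the mean of the particles: Scd2 by 0.40 (edgeR adjusted p = 1.46e-06), Fabp5 by 0.33 (6.29e-05), Srebf1 by 0.24 (0.000611) and Plin2 by 0.22 (0.0271). The other 5 kept their direction but did not pass: Scd at 0.64 (adjusted p = 0.0600), Lpl at 0.21 (0.0889), Pparg at 0.23 (0.0933), Fabp4 at 0.19 (0.20) and Fasn at -0.13 (0.354). This fit called 834 of all genes, against 3484 without the covariate. Whether the markers come from other cells in the cultures was not tested.

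**Figure D3:**
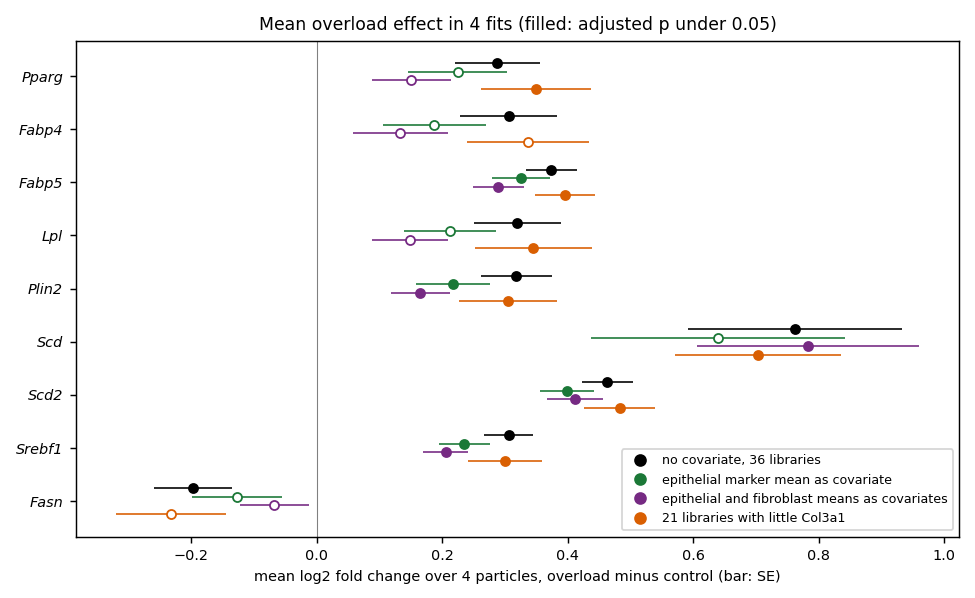
Mean log2 fold change over the 4 particles, overload minus control (horizontal axis, bars 1 SE), in 4 fits: all 36 libraries, with a covariate for epithelial markers, with covariates for epithelial and fibroblast markers, and without the 15 libraries with Col3a1 above 10 CPM. Some groups keep a single library in the last fit. Filled symbols have an edgeR adjusted p under 0.05; Scd2, Fabp5, Srebf1 and Plin2 are filled in all 4 fits.

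Fibroblast transcripts were uneven within groups. The 5 measured fibroblast markers summed to 25.3 to 25.6 CPM in the Printex90 overload libraries and 25.7 to 87.4 CPM in their controls, but to 22.9 to 1636 CPM in the G3-1 overload libraries and 16.6 to 1085 CPM in their controls. With their mean as a covariate all 9 genes passed in the mean of the particles. This fit called 3859 of all genes, against 3484 without the covariate. Without the 15 libraries that held Col3a1 above 10 CPM, Fabp4 and Fasn were no longer called. Some groups keep a single library in that fit, among them the Printex90 controls and G3-1 overload, which limits what its calls show. The 6 measured adipocyte markers, listed because fat cells also express Fabp4 and Plin2, summed to 63.6 to 65.3 CPM in the Printex90 overload libraries and 77.9 to 89.7 CPM in their controls. Adipoq averaged 32.6 ± 1.80 CPM under Printex90 overload and 36.5 ± 3.35 CPM in controls (SD, n = 3 each), and in the mean of the particles it fell by 0.12 on the log2 scale (edgeR adjusted p = 0.0273). Cfd, which encodes adipsin, fell by 0.40 in that mean (edgeR adjusted p = 7.53e-06), and its overload effects differed between particles (edgeR F test, adjusted p = 0.0293). It averaged 32.6 ± 3.27 CPM under Printex90 overload and 44.7 ± 8.11 CPM in controls, and 31.3 ± 1.73 CPM under G1-1 overload and 55.4 ± 5.49 CPM in controls (SD, n = 3 each).

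The other genes of fatty acid handling did not move as one. Among 16 genes of uptake and activation, 15 were tested, and in the mean of the particles 4 rose and 3 fell under overload, with a median log2 fold change of 0.04. These are 26.7% higher and 20% lower, against 11.9% and 12.1% of all genes tested. Changes of the genes named next are log2 fold changes in that mean unless a particle is given. Vldlr, a lipoprotein receptor, rose by 0.25, and Got2, a mitochondrial transaminase also described as a fatty acid binding protein of the plasma membrane, by 0.11. The fatty acid transport proteins Slc27a3 and Slc27a4 fell by 0.80 and 0.18. Slc27a3 averaged 2.11 ± 0.480 CPM under Bayertitan overload and 4.71 ± 0.547 CPM in controls (SD, n = 3 each), a fall of 1.15 on the log2 scale.

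Of 20 droplet storage genes 16 were tested, 5 rose and 5 fell, which is 31.2% each way against 11.9% and 12.1% of all genes tested, with a median of 0.06. Gpat3, which starts triglyceride synthesis, rose by 0.29, and Hilpda, a droplet protein that inhibits lipolysis, by 0.42. Lpin2, a phosphatidate phosphatase, fell by 0.28 and Gpat4, a relative of Gpat3, by 0.14. With Printex90 Lpin2 fell by 0.53, and with Bayertitan Lpin3, another phosphatase of this family, fell by 0.70. Gpat3 averaged 34.8 ± 1.70 CPM under G1-1 overload and 22.5 ± 0.634 CPM in controls, and G0s2, an inhibitor of adipose triglyceride lipase, 8.81 ± 1.13 and 3.61 ± 0.631 CPM (SD, n = 3 each). In these G1-1 comparisons Gpat3 rose by 0.63 and G0s2 by 1.29. Of 7 lipolysis genes 6 were tested and 1 rose, which is 16.7% against 11.9% of all genes tested. This was Mgll, monoglyceride lipase, which frees the last fatty acid of a triglyceride. It averaged 206 ± 31.8 CPM under Printex90 overload and 116 ± 8.15 CPM in controls, and 214 ± 9.43 CPM under G1-1 overload and 142 ± 17.1 CPM in controls (SD, n = 3 each). With Bayertitan it rose by 0.42, and in the mean of the particles by 0.52 (edgeR adjusted p = 2.14e-07).

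In synthesis, elongation and desaturation 15 of 18 genes were tested, 2 rose and 2 fell, with a median of -0.02. At 13.3% each way, this count is close to the 11.9% higher and 12.1% lower of all genes tested. The delta-5 desaturase Fads1 rose by 0.60 and the elongase Elovl1 by 0.09, while Fads3, a desaturase relative, fell by 0.29 and Acly, which supplies acetyl-CoA for synthesis, fell by 0.08. Of the single particles Fads1 passed with Printex90, where it averaged 23.7 ± 2.40 CPM under overload and 14.1 ± 1.83 CPM in controls (SD, n = 3 each; edgeR adjusted p = 0.0467). Its 4 control groups differed, with means of 14.1 to 31.4 CPM (edgeR F test, adjusted p = 0.0141). Of the 8 genes of SREBP control, all tested, 3 rose and 1 fell (37.5% and 12.5%, against 11.9% and 12.1% of all genes tested), with a median of 0.06. Insig1 and Insig2, which hold SREBP in the endoplasmic reticulum, rose by 0.17 and 0.20, the protease Mbtps2 rose by 0.13 and the protease Mbtps1 fell by 0.12.

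In mitochondrial and peroxisomal oxidation 16 of 17 genes were tested, 4 rose and 2 fell (25% and 12.5%, against 11.9% and 12.1% of all genes tested), with a median of 0.03. The share that fell is close to that of all genes. Hadhb, of the mitochondrial trifunctional protein, rose by 0.10. Acadvl, very long chain acyl-CoA dehydrogenase, fell by 0.15. Ppara, the nuclear receptor of fatty acid oxidation, fell by 0.66. Its level was low, at 0.499 ± 0.0808 CPM under Printex90 overload and 1.63 ± 0.598 CPM in controls (SD, n = 3 each). Of 13 partners and upstream genes of PPAR gamma 12 were tested, 3 rose and 2 fell (25% and 16.7%, against 11.9% and 12.1% of all genes tested), with a median of -0.02. Csf2rb, the signalling chain of the receptor of GM-CSF, a cytokine that induces Pparg in alveolar macrophages, fell by 0.40 (edgeR adjusted p = 0.000116), while Csf2ra, the ligand-specific chain, rose by 0.16. The corepressors Ncor1 and Nrip1 were called in opposite directions, at 0.12 and -0.13. With Printex90, Csf2rb averaged 36.8 ± 1.80 CPM under overload and 74.2 ± 4.50 CPM in controls (SD, n = 3 each), a fall of 1.01, in the same libraries in which Pparg rose. The overload effects on Csf2rb differed between particles (edgeR F test, adjusted p = 0.00968). It averaged 76.4 CPM under overload and 79.2 CPM in controls with G1-1, 50.1 and 66.4 CPM with G3-1, and 69.5 and 75.1 CPM with Bayertitan.

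**Figure D4:**
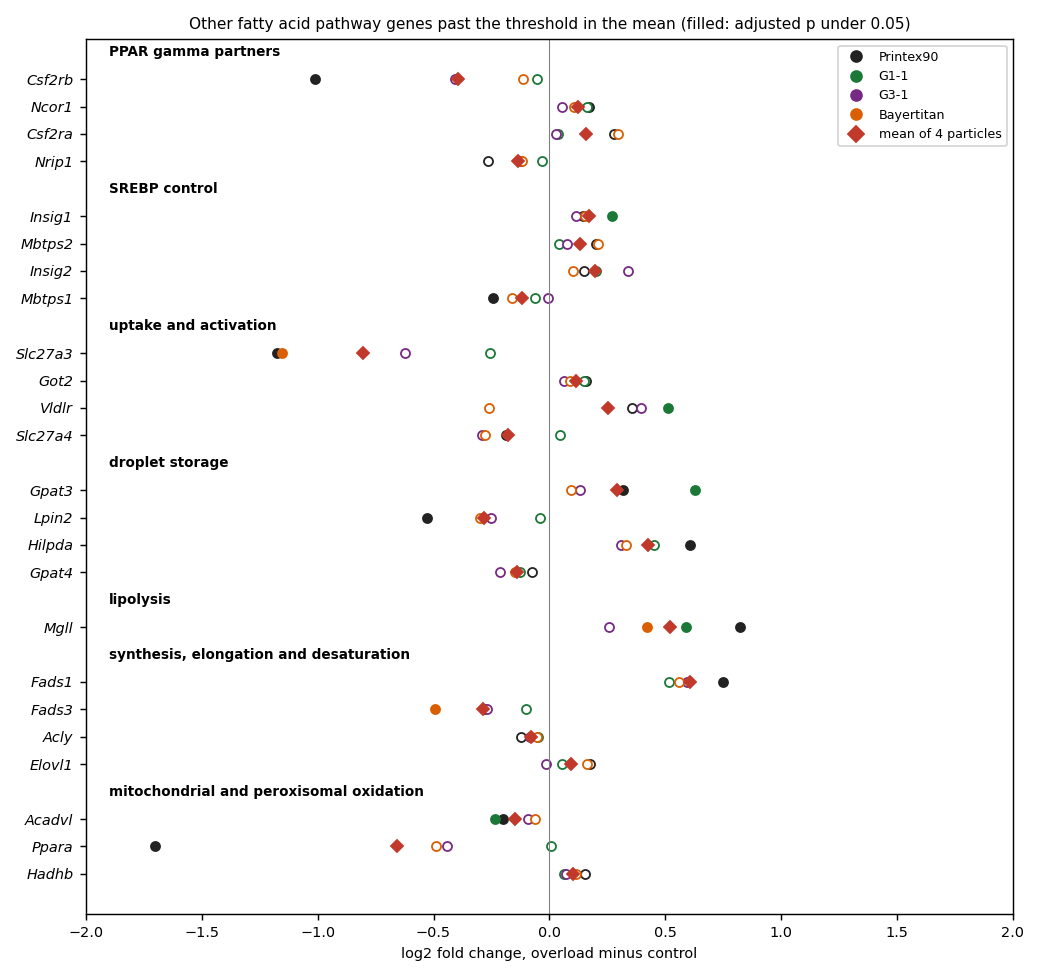
Log2 fold change of overload minus control (horizontal axis) for genes of 7 lists of fatty acid handling that passed the test in the mean of the 4 particles and are named in the text, at most 4 per list, by particle and as the mean. Filled symbols have an edgeR adjusted p under 0.05; Mgll lies right of 0 with every particle, and Csf2rb lies at -1.01 with Printex90.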

How the data were processed

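The 36 sequencing libraries were made from 150 ng of RNA after removal of ribosomal RNA (KAPA HyperPrep, RiboErase), per the labels' protocols. The authors deposited estimated counts per gene symbol, not scaled to library size; 47.7% of the values are not whole numbers. The submitters' processing notes name Rnor_6.0 as the build, with Salmon, FastQC and MultiQC; versions, annotation and the step to genes are not given in the sources used here. Whether counting used strand is not given either, so reads of overlapping and antisense genes cannot be told apart.

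Estimated counts were rounded, filtered with filterByExpr by group, scaled by TMM (factors 0.934 to 1.07) and fitted in 1 edgeR 4.0.16 quasi-likelihood model (limma 3.58.1, R 4.3.3) with 12 group means and 24 residual degrees of freedom. Log2 fold changes are given with their SE, and Benjamini-Hochberg adjustment covered every tested gene, with a threshold of 0.05. Within groups no pair of libraries was close enough to be a duplicate (chi-square per gene 6.77 to 52.2). The test was checked on simulated counts. Alternatives were DESeq2, its size factors, no filter, a replicate block, epithelial and fibroblast marker means as covariates, libraries left out, and each particle alone; 2 of them, both covariates together and the 2 extreme libraries left out together, were chosen after seeing the data. Genes outside the 9 were named by a rule: the 4 smallest p-values per list among genes past the threshold in the mean overload effect, and up to 3 per particle past it there. Of the genes so picked 1 is not reported here. The members, lists and rule were chosen with earlier results of these data known. Promoters and gene order are from RefSeq GRCr8, which differs from the build of the counts, and were used for sequence and names only.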

Additional observations from a re-analysis of the deposited data

Results flagged for a closer look

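The overload effects on Fabp4 and Fabp5 differed between the 4 particles by an F test of the difference itself, each with 3 libraries per group. For Fabp4 the adjusted p was 0.00813 by edgeR, with log2 fold changes of overload against control of 0.72 with Printex90, -0.41 with G1-1, 0.19 with G3-1 and 0.72 with Bayertitan. For Fabp5 the adjusted p was 0.0426 by edgeR, with 0.66, 0.37, 0.09 and 0.38 in the same order of particles. The Fabp4 controls themselves had means of 714 to 1026 CPM, and the part of the controls in this difference was not tested. With 1 library left out the adjusted p by edgeR ran from 0.00193 to 0.0464 for Fabp4, which passed in all 36 fits, and from 0.0231 to 0.0965 for Fabp5, which did not pass in 14 of them.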

How the results depend on the processing

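None of the 40 calls made on the 9 genes changed sign under any alternative; the 2 F tests among them have no sign. Counts below are all calls under a setting, with those kept from the fit of all libraries named where the 2 differ. Without the libraries with Col3a1 above 10 CPM some groups keep a single library, which limits the counts of that setting. In the mean overload effect there were 9 calls, 4 with the epithelial covariate, 5 with both covariates, and 8 to 9 with 1 library left out. Of all genes, 3484 were called in the fit of all libraries, 834 with the epithelial covariate and 865 with both covariates. Single-particle overload effects gave 17 calls, 6 with the epithelial covariate, 8 with both covariates (5 kept), 3 without the libraries with Col3a1 above 10 CPM, 6 with each particle fitted alone (5 kept), 7 with Printex90 overload replicate 2 and Bayertitan control replicate 3 left out together (6 kept), and 11 to 18 with 1 library left out. The mean non-overload effect gave 4 calls, 1 with the epithelial covariate, 0 without the Col3a1 libraries, 6 with DESeq2 (4 kept) and 2 to 6 with 1 library left out; in single particles DESeq2 made 1 call where edgeR made 0, and edgeR made 0 with any library left out. The mean difference of overload and non-overload gave 3 calls, 1 without the Col3a1 libraries and 3 with any 1 library left out. In single particles it gave 5 calls, 9 with DESeq2 (5 kept), 3 with the epithelial covariate (2 kept), 3 with both covariates (1 kept), 1 without the Col3a1 libraries, 2 with each particle alone (1 kept) and 3 to 9 with 1 library left out. The test of overload effects between particles gave 2 calls, 1 without a filter on low counts, 1 with the epithelial and 1 with the fibroblast covariate, 1 with the 2 extreme libraries left out together, 0 without the Col3a1 libraries and 1 to 2 with 1 library left out. For the 4 control groups edgeR called 0, DESeq2 2, and 0 to 2 with 1 library left out.

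With the replicate number as a block within each particle the calls were 9 in the mean overload effect, 19 in single particles, 5 and 0 for non-overload, 3 and 6 for overload against non-overload, and 1 for the difference between particles. Deviations of same-numbered libraries had correlations of -0.67 to 0.43 (median 0.07), and 15 of 36 were over 0.1. Those of differently numbered libraries ran from -0.66 to 0.57 (median -0.05), and 28 of 72 were over 0.1. These ranges overlap, so they cannot tell whether the numbers pair the libraries. No block could be fitted to the 4 control groups. The 6 overload calls with Bayertitan became 0 with the epithelial covariate, with both covariates and with each particle fitted alone. Each of these fits called 0 of all genes with Bayertitan, against 1426 in the fit of all libraries. The 8 overload calls with Printex90 became 3, 2 and 2 in the same order of settings. Single-particle calls of Fasn with Printex90 and of Plin2 with Bayertitan were each lost in 26 of the 36 fits that left out 1 library. In the same fits Srebf1 with Bayertitan was lost in 12, and in the mean non-overload effect Plin2 in 14 and Fabp5 in 4. The low counts of Scd limit its precision.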
